A study of Mus musculus with 18 samples.

Results

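The genes described here are 10 sensors of foreign or misplaced DNA and RNA and the enzymes that keep their ligands low: Mb21d1 (cGAS), Tmem173 (STING), Ddx58 (RIG-I), Ifih1 (MDA5), Mavs, Tlr3, Tlr7, Tlr9, Trex1 and Samhd1. They were taken by symbol, and all 10 were found among 24431 gene entries and were among the 16060 genes with a mean of at least 10 normalised counts that were tested. Their expression was measured by paired-end sequencing of poly(A) RNA in whole rectus femoris, which is a muscle of the thigh, and all mice were C57BL/6. Old 3TC mice were 19 months old and drank water with 2 mg/mL of 3TC (lamivudine, a nucleoside inhibitor of reverse transcriptase) for 6 weeks. Old untreated mice were 19 months old, young untreated mice were 8 months old, and neither received the drug. Each of the 3 arms held 6 libraries, 3 from females and 3 from males, named below by sex and the number in their title; the young untreated female titled 1 carries the number 2 in its library name, so its number is in doubt. There was no young arm with 3TC, so the drug was compared only within old muscle, and old untreated muscle served in both the drug and the age comparison.

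cGAS binds double-stranded DNA in the cytosol and makes cyclic GMP-AMP, which activates STING on the endoplasmic reticulum; STING then recruits the kinase TBK1 and the transcription factor IRF3, which turn on type I interferon. RIG-I and MDA5 recognise viral or self double-stranded RNA and signal through MAVS on mitochondria to the same kinase. TLR3, TLR7 and TLR9 read double-stranded RNA, single-stranded RNA and unmethylated CpG DNA inside endosomes, with TLR7 and TLR9 best known from macrophages, dendritic cells and B cells. TREX1 degrades cytosolic DNA and SAMHD1 hydrolyses the nucleotides that DNA synthesis needs. DNA copied from RNA by reverse transcriptase is among the ligands that can reach cGAS.

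In the age comparison 9 of the 10 genes averaged higher on the log2 scale in old untreated than in young untreated muscle, with Tlr9, Tlr7 and Tmem173 showing the biggest differences, but Mavs and Trex1 turned lower under other scalings of the libraries. In old 3TC muscle all 10 averaged lower than in old untreated muscle, but Mavs and Tlr3 turned higher under other scalings. No gene of the 10 passed an adjusted p under 0.05 in limma in either comparison, and the arms overlapped for every one of them. The direction was common in the table: 79.1% of all genes tested were above 0 for age and 80.0% were below 0 for 3TC.

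**Figure D1:**
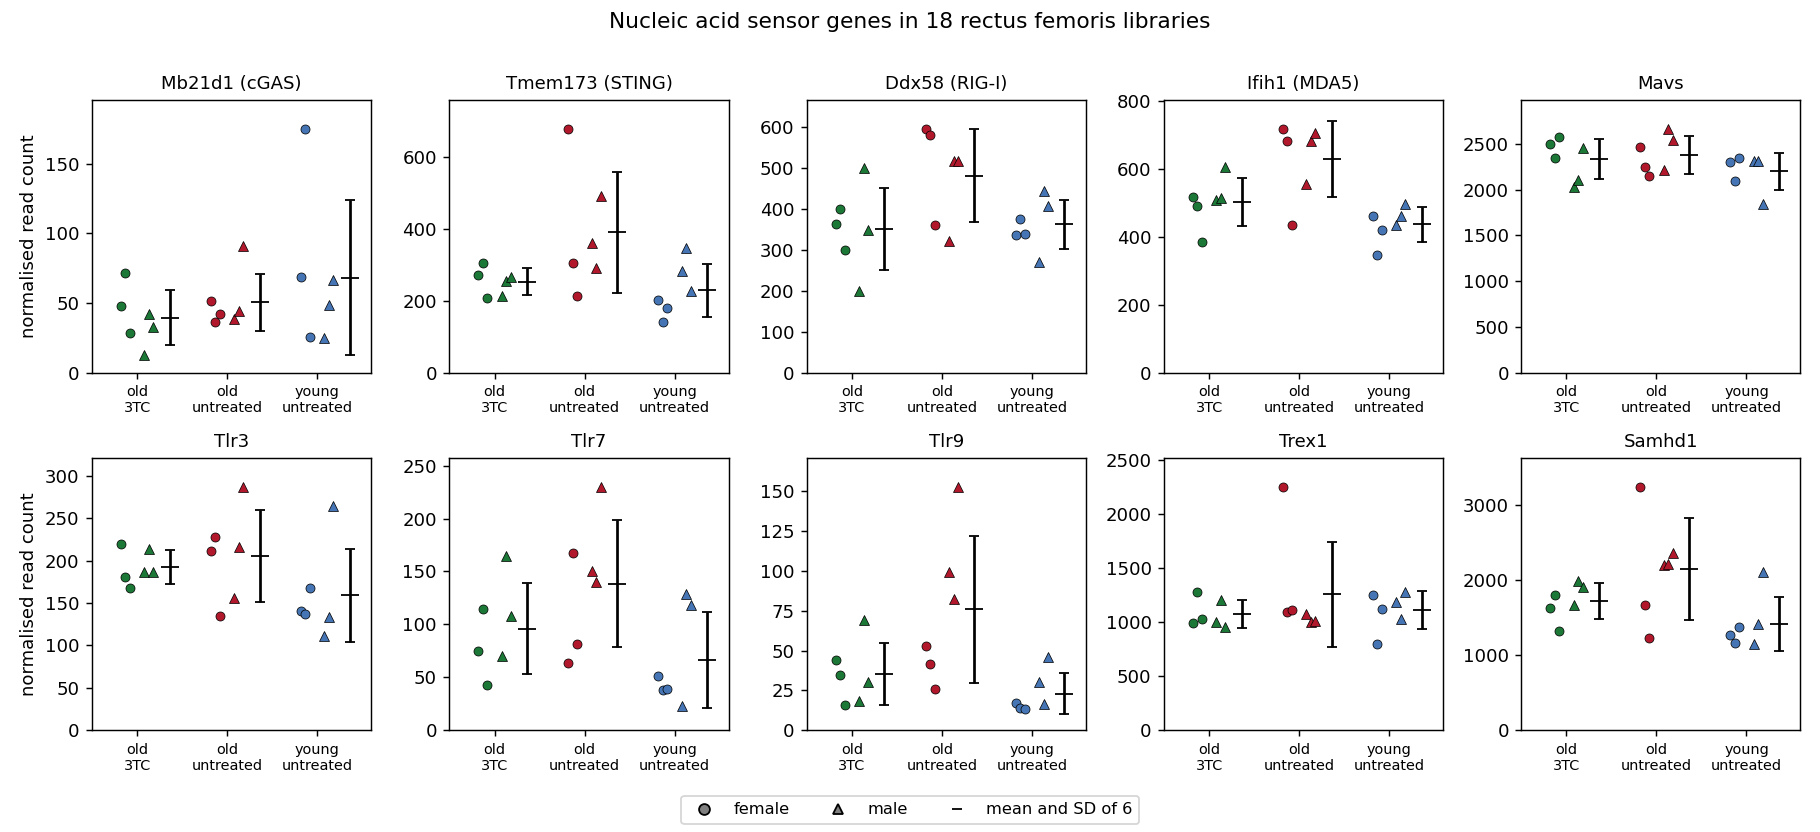
Normalised read count of each of the 10 genes in the 18 libraries, with circles for females, triangles for males, and the mean and SD of 6 beside each arm; each vertical axis starts at 0. The arms overlap in every panel, and single libraries stand high for Mb21d1 (175 in a young untreated female), Tmem173 (677 in an old untreated female) and Trex1 (2251 in the same old untreated female).

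The libraries held 64.2 to 85.4 M reads, and the deposited values scale each to 74.0 M. Gene entries took 87.9% of the counts in young untreated F3 and 94.0% in young untreated F1, against 97.4 to 98.4% in the other libraries. All 10 muscle markers, among them Ckm, Acta1 and Myh4, were above 0 in every library, and their summed level lay between 8.57e+06 and 1.15e+07 in old 3TC, 7.53e+06 and 1.08e+07 in old untreated and 6.86e+06 and 1.2e+07 in young untreated muscle. The summed level of 22 liver markers reached 407721 in old 3TC M2 and was 4234 in old 3TC F4, against 17762 to 53821 in old untreated and 9594 to 208927 in young untreated muscle. Old untreated F1 had the highest value of all 18 libraries for 5 of the 10 genes (Tmem173, Ddx58, Ifih1, Trex1 and Samhd1), and old untreated M6 for 3 (Tlr3, Tlr7 and Tlr9). Young untreated F3 had the highest Mb21d1.

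The exonuclease gene Trex1 and the adaptor gene Mavs had the highest levels per length, and the endosomal receptor gene Tlr9 and the cGAS gene the lowest. All exons of Trex1 lie inside exons of Atrip on the same strand, so its place depends on an uncertain split of reads. Taking the mean over 18 libraries of the normalised count per kb of exon, the order from high to low was Trex1 (1001), Mavs (689), Samhd1 (193), Tmem173 (106), Ifih1 (64.2), Ddx58 (56.4), Tlr3 (35.7), Tlr7 (24.6), Tlr9 (12.84) and Mb21d1 (12.76). Mavs and Samhd1 were the only neighbours in this order whose libraries did not overlap in any arm. Trex1 lay above Mavs without overlap in both old arms but overlapped it in young muscle, and Samhd1 and Tmem173, like Tmem173 and Ifih1, were apart only in old 3TC muscle. From Ifih1 down, each gene overlapped the next in every arm. The counts behind the lowest genes were few: 12 to 160 reads per library for Mb21d1, 13 to 160 for Tlr9 and 23 to 241 for Tlr7.

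**Figure D2:**
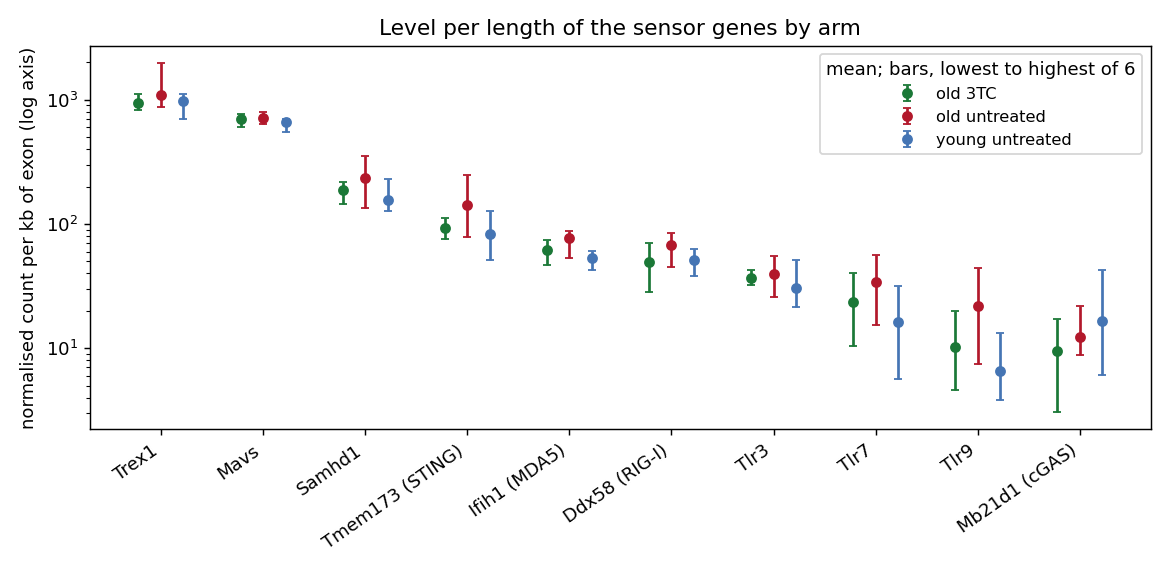
Normalised read count per kb of exon on a log axis for the 10 genes, ordered by their mean over 18 libraries; points are arm means and bars run from the lowest to the highest of 6 libraries, with old 3TC left, old untreated in the middle and young untreated right. Trex1 and Mavs lie near the top of the scale, and Tlr9 and Mb21d1 at its foot with bars that overlap. The level of Trex1 depends on the split of reads with Atrip.

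The DNA branch begins with Mb21d1 (chromosome 9, 78430526 to 78443237, minus strand in GRCm38; Cgas in the annotation), which encodes cGAS. Its lowest, median and highest normalised counts were 12.7, 37.7 and 71.5 in old 3TC, 36.2, 43.1 and 90.6 in old untreated and 25.1, 57.4 and 175 in young untreated muscle. The arms overlapped widely, and the top values of the old untreated and young untreated arms each came from a single library, M6 and F3. Its log2 difference was -0.44 (SE 0.44) for old 3TC minus old untreated and -0.18 (SE 0.44) for old untreated minus young untreated, with adjusted p values of 0.669 and 0.827 in limma. Without young untreated F3 the age value was 0.14, so its direction rested on that library, and the 3TC value was -0.185 without old 3TC M1 and -0.21 without old untreated M6. In the annotation, 201 bases of its exons lie opposite the pseudogene Gm8093.

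Tmem173 (chromosome 18, 35733679 to 35740554, minus strand) encodes STING. Its lowest, median and highest counts were 208, 259 and 304 in old 3TC, 213, 333 and 677 in old untreated and 141, 214 and 346 in young untreated muscle. None of the 6 old 3TC libraries reached the old untreated mean of 389.9 ± 168 (SD, n = 6), 2 of them lay below the lowest old untreated library, and 5 of 6 old untreated libraries lay above the young untreated mean of 229.6 ± 73.8 (SD, n = 6). Fitted with limma, Tmem173 differed by -0.53 (SE 0.24) on the log2 scale for 3TC and by 0.72 (SE 0.24) for age, with adjusted p values of 0.486 and 0.111 in limma. Leaving out old untreated F1, the library with 677, brought these to -0.32 and 0.50, and array weights brought the 3TC value to -0.27.

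Trex1 (chromosome 9, 109057933 to 109059734, minus strand) encodes the exonuclease that removes DNA from the cytosol. Its counts were 952, 1016 and 1279.7 in old 3TC, 998, 1088 and 2251 in old untreated and 799, 1156 and 1276 in young untreated muscle. A single library, old untreated F1, lay far above the rest, and the other libraries overlapped between arms. On the log2 scale Trex1 differed by -0.16 (SE 0.17) for 3TC and 0.13 (SE 0.17) for age, with adjusted p values of 0.679 and 0.668 in limma; without old untreated F1 they were 0.02 and -0.05. All 1147 bases of its exons lie inside exons of Atrip on the same strand, a gene with a mean of 509.7 normalised counts, so the split of reads between them is uncertain.

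Samhd1 (chromosome 2, 157097533 to 157135265, minus strand) encodes the enzyme that limits deoxynucleotides. It had 1321, 1738 and 1993 counts as lowest, median and highest in old 3TC, 1229.7, 2208 and 3246 in old untreated and 1153, 1325 and 2109 in young untreated muscle. Of the old untreated libraries, 4 of 6 exceeded the highest young untreated one, while every old 3TC library lay inside the old untreated range. For Samhd1 the log2 difference was 0.57 (SE 0.18) for age and -0.27 (SE 0.18) for 3TC, with adjusted p values of 0.0933 and 0.547 in limma, and without old untreated F1 it was 0.41 and -0.11.

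On the RNA side, Ifih1 (chromosome 2, 62595798 to 62646255, minus strand) encodes MDA5, the sensor of long double-stranded RNA. Its lowest, median and highest counts were 384, 512 and 606 in old 3TC, 436, 683 and 717 in old untreated and 346, 448 and 498 in young untreated muscle. Of the old untreated libraries, 5 of 6 lay above the highest young untreated one, with F3 the exception, and none of the 6 old 3TC libraries reached the old untreated mean of 630.5 ± 111.5 (SD, n = 6). The log2 difference was 0.51 (SE 0.13) for age and -0.31 (SE 0.13) for 3TC, with adjusted p values of 0.0625 and 0.481 in limma. With the smallest SE after Mavs, it was among the genes closest to the threshold for age.

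Ddx58 (chromosome 4, 40203773 to 40239828, minus strand) encodes RIG-I, which recognises RNA ends that carry a triphosphate. It had 198, 355 and 499 counts as lowest, median and highest in old 3TC, 320.5, 516 and 594 in old untreated and 270.4, 357 and 443 in young untreated muscle. In old untreated muscle 4 of 6 libraries exceeded every young untreated one, while M1 and F3 lay inside the young range. The log2 difference was -0.47 (SE 0.21) for 3TC and 0.39 (SE 0.21) for age, with adjusted p values of 0.483 and 0.265 in limma. Leaving out old 3TC M1, the library with 198, brought the 3TC value to -0.31.

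Ifih1 and Ddx58 were also the members with an interferon-response motif at their start site, which is why their promoters are shown. The letters searched were GAAA, any 2 bases and GAAA again, on either strand (TTTC, any 2 bases and TTTC on the other), the core of the element bound by interferon-activated factors, in the 250 bases before and 50 after each RefSeq start on GRCm38.p6. Among the 8 of the 10 genes with a promoter window, these 2 held a match, against 1131 of 32851 windows (3.44%) and 1079 of 27025 genes (3.99%) in the whole table. In the list of interferon-stimulated genes used below, 11 of 21 held one. The matches are capitalised in the sequences, which run 5′ to 3′ along the gene's minus strand, at chr4:40239776-40240075 for Ddx58 and chr2:62646206-62646505 for Ifih1; the Ddx58 match is the reverse complement and begins 3 bases into the transcript, and the Ifih1 match begins at base 33.
Ddx58 promoter: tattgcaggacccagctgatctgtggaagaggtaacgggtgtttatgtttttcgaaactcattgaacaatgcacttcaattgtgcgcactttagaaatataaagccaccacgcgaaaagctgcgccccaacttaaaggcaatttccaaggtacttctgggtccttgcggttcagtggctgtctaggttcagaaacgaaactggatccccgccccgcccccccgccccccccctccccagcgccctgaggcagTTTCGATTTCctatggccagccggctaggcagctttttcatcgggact
Ifih1 promoter: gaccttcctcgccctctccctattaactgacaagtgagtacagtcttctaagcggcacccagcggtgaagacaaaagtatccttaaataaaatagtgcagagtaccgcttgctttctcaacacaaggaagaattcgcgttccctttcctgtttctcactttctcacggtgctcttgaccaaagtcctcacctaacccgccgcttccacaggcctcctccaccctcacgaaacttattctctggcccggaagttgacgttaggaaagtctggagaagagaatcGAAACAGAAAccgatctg
A match describes letters only and does not show that a factor binds there.

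Mavs (chromosome 2, 131234063 to 131248025, plus strand) encodes the mitochondrial adaptor to which RIG-I and MDA5 signal. Its lowest, median and highest counts were 2031, 2397 and 2577 in old 3TC, 2149, 2356 and 2658 in old untreated and 1838, 2303 and 2349.6 in young untreated muscle. It was the steadiest of the 10 genes, and its arms overlapped. The log2 difference was -0.03 for 3TC, with an unadjusted 95% interval from -0.21 to 0.15, and 0.11 for age, with an interval from -0.06 to 0.29. Both directions turned round under median-of-ratios scaling (0.11 and -0.05).

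Among the endosomal receptors, Tlr9 (chromosome 9, 106222598 to 106226883, plus strand), the receptor for unmethylated CpG DNA, showed the widest differences of all 10 genes. Its lowest, median and highest counts were 15.9, 32.4 and 69.1 in old 3TC, 26.1, 67.7 and 153 in old untreated and 13.4, 16.7 and 45.9 in young untreated muscle. All 6 old untreated libraries lay above the young untreated mean of 22.8 ± 12.9 (SD, n = 6), 4 of them above the highest young library, and no old 3TC library reached the old untreated mean of 75.8 ± 46.1 (SD, n = 6). Its log2 difference was 1.61 (SE 0.39, a 3.05-fold higher fitted level) for age and -1.03 (SE 0.39) for 3TC, with adjusted p values of 0.0597 and 0.481 in limma. Both came from low counts. By sex, the age value was 1.32 (SE 0.54) in females and 1.89 (SE 0.54) in males, and the 3TC value -0.40 (SE 0.54) in females and -1.65 (SE 0.54) in males; neither difference between the sexes passed (adjusted p 1 for age and 0.9997 for 3TC in limma).

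Tlr7 (chromosome X, 167304929 to 167330558, minus strand), the receptor for single-stranded RNA, had 42.5, 91.6 and 165 counts as lowest, median and highest in old 3TC, 63.1, 145 and 229.8 in old untreated and 23.1, 45.4 and 129 in young untreated muscle. The young libraries split, with M2 and M8 at 129 and 118 and the other 4 at 51.6 or less, and 4 of 6 old untreated libraries lay above all of them. For Tlr7 the log2 difference was 1.19 (SE 0.38) for age and -0.52 (SE 0.38) for 3TC, with adjusted p values of 0.1 and 0.572 in limma. Old untreated F1, the library highest for Tmem173 and Trex1, was the lowest of its arm for Tlr7, at 63.1.

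Tlr3 (chromosome 8, 45395665 to 45411080, minus strand) reads double-stranded RNA and is known from many cell types besides immune cells. Its lowest, median and highest counts were 168, 187 and 220.4 in old 3TC, 135, 214 and 287 in old untreated and 112, 139 and 265 in young untreated muscle. Old 3TC libraries were the most closely spaced, with all 6 above the young untreated mean of 159.3 ± 54.7 (SD, n = 6), as were F8 and M8 of the young libraries. The log2 difference was 0.38 (SE 0.20) for age and -0.06 (SE 0.20) for 3TC, with adjusted p values of 0.273 and 0.911 in limma; the 3TC value was 0.08 under median-of-ratios scaling. Of its exons, 381 bases lie opposite the antisense gene Gm45542, and whether reads were counted by strand is not given in the sources used here.

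For 3TC in old muscle, none of the 10 genes passed an adjusted p under 0.05 in limma, edgeR or DESeq2, and neither did any gene of the table in any of these tools (0.0% of genes tested in limma). At an unadjusted p under 0.05 limma had 4 of 10, all lower (Tmem173, Ddx58, Ifih1 and Tlr9), against 10.2% of genes tested in either direction. By contrast edgeR and DESeq2 each had 1 of 10, where 1185 and 1411 of the 16060 genes fitted reached that threshold in either direction. The count of 4 was 1 without old 3TC F8, old 3TC M1, old untreated F1 or old untreated M6, and 2 without old untreated F2. No gene of the 10 had all old 3TC libraries below all old untreated ones, which held for 0.324% of genes tested. The median log2 difference of the 10 genes was -0.378 and that of all genes -0.153. Relative to the median of all genes, which has as many genes above it as below, 8 of the 10 were lower in old 3TC muscle. Mavs and Tlr3 were higher, and Trex1, among the 8, was only at -0.0119 from that median. These counts were the same with median-of-ratios scaling, quantile normalisation, a total over gene entries, edgeR and DESeq2. Scaling a library moves its genes and their median nearly alike, so this sameness was largely built in and lends no support. Before that median is taken off, median-of-ratios scaling put the 3TC values of Ifih1, Samhd1 and Trex1 at -0.17, -0.13 and -0.03, and quantile normalisation put those of Mb21d1, Tmem173, Ddx58, Tlr7 and Tlr9 at -0.15, -0.35, -0.30, -0.28 and -0.67.

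For age, 0 of the 10 genes passed in limma and edgeR, and 1, Tlr9, passed in DESeq2 (adjusted p 0.0188). Over the whole table DESeq2 called 143 genes higher and 78 lower for age, and edgeR 2 and 2. Of all genes tested 0.367% passed in limma (59 genes, 57 of them higher in old untreated muscle), and 0.996% had every old untreated library above every young one, a pattern that no gene of the 10 had. At an unadjusted p under 0.05 limma had 5 of 10 higher (Tlr9, Tlr7, Tmem173, Samhd1 and Ifih1) against 20.8% of genes tested, and edgeR and DESeq2 each had 5 as well. In edgeR and DESeq2, 2029 and 2275 of the 16060 genes fitted reached that threshold in either direction. Leaving out old untreated F3, the lowest old untreated library for 6 of the 10 genes, gave 3 passing genes (Ifih1, adjusted p 0.0368; Tlr9, 0.0443; Samhd1, 0.0461); leaving out young untreated M8 gave the same 3, and leaving out young untreated F8 gave Ifih1 and Tlr9. Weights per library gave Ifih1, Tlr7 and Tlr9. Leaving out any other library gave 0. The count of all genes passing for age, 59 in the main fit, was 631 with weights per library. On leaving out single libraries it ran from 2 to 608, the 608 without young untreated M8. So these calls do not show a change particular to the 10 genes. The median log2 difference of the 10 genes was 0.452 and that of all genes 0.164. Relative to the median of all genes 7 were higher and Mb21d1, Mavs and Trex1 lower, with Mavs and Trex1 only at -0.0501 and -0.0361 from it. The counts were again the same under those scalings, which was largely built in here too. Median-of-ratios scaling put the age values of Ddx58, Tlr3 and Mb21d1 at 0.225, 0.22 and -0.34, and quantile normalisation put that of Ifih1 at 0.32.

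**Figure D3:**
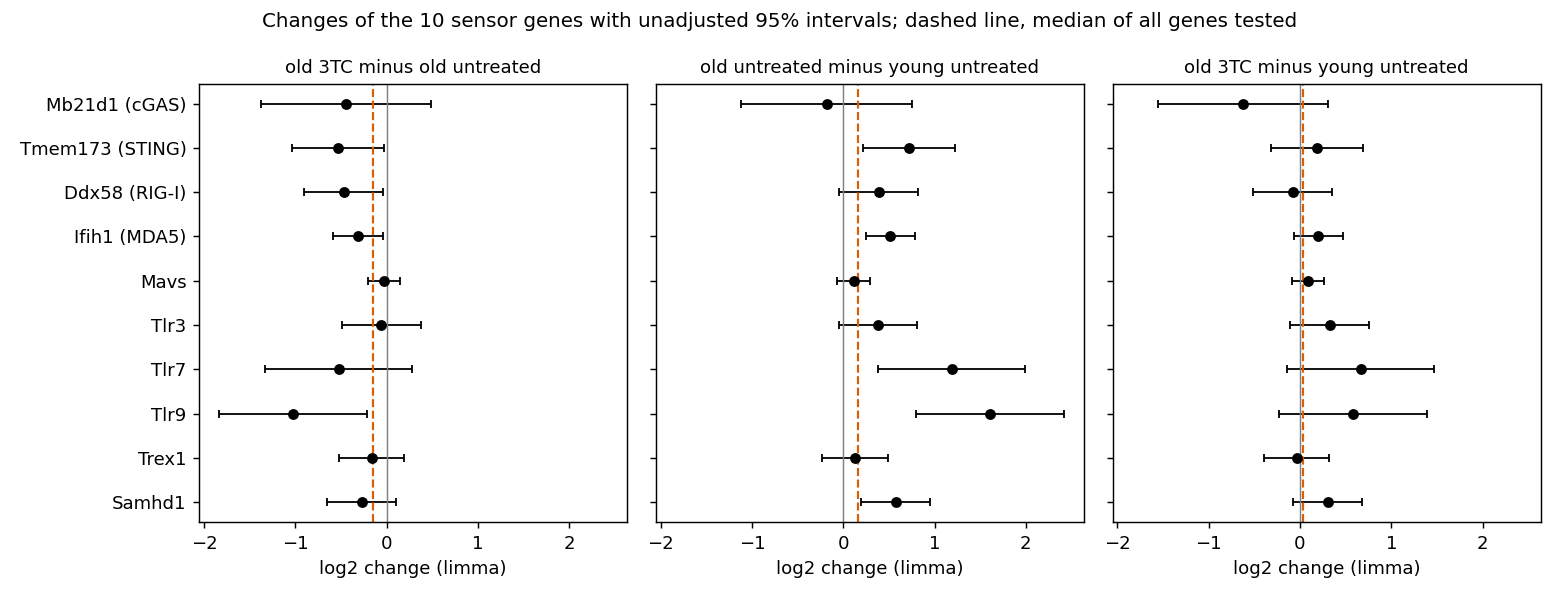
Log2 difference of each of the 10 genes in limma with its unadjusted 95% interval, for old 3TC minus old untreated (left), old untreated minus young untreated (middle) and old 3TC minus young untreated (right); the dashed line marks the median of all genes tested. Intervals for Tmem173, Ddx58, Ifih1 and Tlr9 lie below 0 on the left and those for Tmem173, Ifih1, Tlr7, Tlr9 and Samhd1 above 0 in the middle, while every interval on the right holds 0.

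The first and second comparisons share the old untreated libraries, so a library that is high there lowers the 3TC value and raises the age value at once. Old 3TC muscle was therefore also set against young untreated muscle, a difference in which the old untreated libraries do not enter except through the shared estimate of spread. There 0 of 10 genes passed in limma, edgeR or DESeq2 (0.0125% of genes tested passed in limma), and 0 of 10 reached an unadjusted p under 0.05 in any of these, against 9.32% of genes tested in limma. The values were 0.66 (SE 0.38) for Tlr7, 0.58 (SE 0.39) for Tlr9, 0.32 (SE 0.20) for Tlr3, 0.30 (SE 0.18) for Samhd1, 0.20 (SE 0.13) for Ifih1 and 0.19 (SE 0.24) for Tmem173. Mb21d1 was at -0.62 (SE 0.44), Ddx58 at -0.08 (SE 0.21), Trex1 at -0.04 (SE 0.17) and Mavs at 0.09 (SE 0.08). A p that misses the threshold does not show equal levels, and the unadjusted 95% interval for Tmem173 ran from -0.32 to 0.70. Single libraries moved several values: without young untreated F3 Mb21d1 was at -0.31 and Tmem173 at 0.07, and without old 3TC M1 Mb21d1 was at -0.37. Tmem173 was at 0.10 without old 3TC F5 and 0.30 without young untreated M2. Without young untreated M1 Tlr7 was at 0.33 and Tlr3 at 0.215, without young untreated M8 Mavs was at 0.04, and the signs of Ddx58 and Trex1 turned on leaving out single libraries. Leaving out young untreated M8 gave 2 genes at an unadjusted p under 0.05, and leaving out old 3TC M1, old untreated F1 or young untreated M2 gave 1.

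Female and male mice were compared for each change by an interaction term. No gene of the 10 passed in limma, edgeR or DESeq2 for either change; of all genes tested, 0.0% passed in limma, 0 genes in edgeR, and 71 genes for the 3TC change and 152 for the age change in DESeq2. None of the 10 reached an unadjusted p under 0.05, against 2.97% of genes tested for the 3TC change and 4.88% for the age change. The age value of Tmem173 was 1.03 (SE 0.33) in females and 0.41 (SE 0.33) in males, and that of Trex1 was 0.43 (SE 0.23) in females and -0.17 (SE 0.23) in males. Mb21d1 had an age value of -0.66 (SE 0.63) in females, the sex of the young library with 175, and 0.30 (SE 0.63) in males.

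Macrophage markers, like most of the sensors, averaged higher in old untreated than in young untreated muscle and lower in old 3TC than in old untreated muscle. All 15 macrophage markers were above 0 in every library, and their summed level ran from 11337 to 25740 in old 3TC, 16869 to 48080 in old untreated and 4654 to 29421 in young untreated muscle. All 15 had a log2 difference above 0 for age (median 1.13; 14 at an unadjusted p under 0.05, 0 adjusted) and below 0 for 3TC (median -0.405; 1 at an unadjusted p under 0.05, 0 adjusted), and these directions were the same for all 15 with median-of-ratios scaling, quantile normalisation, edgeR and DESeq2. Of all genes tested, 79.1% lay above 0 for age and 80.0% below 0 for 3TC. In limma, 20.8% were higher for age at an unadjusted p under 0.05, and 10.2% differed in either direction for 3TC. Old untreated M6, highest for Tlr3, Tlr7 and Tlr9, also had the highest macrophage, dendritic and T and NK cell sums of the 18 libraries, and young untreated F3 had the lowest macrophage sum. Old untreated F1, highest for Tmem173, Trex1 and Samhd1, ranked 12th for the macrophage sum and 2nd for the neutrophil sum. The part of these markers in the differences was not tested, and in whole muscle more cells of a type and more RNA per cell cannot be told apart.

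The other immune lists had lower sums, but a sum depends on the genes in its list, so different lists do not compare cell numbers. Lyz2 was the most abundant macrophage marker. Dendritic markers summed to 564 to 1357 in old 3TC, 782 to 1511 in old untreated and 583 to 1267 in young untreated muscle, with a median log2 difference of 0.809 for age and -0.263 for 3TC. T and NK cell markers summed to 178 to 418 in old 3TC, 188 to 1095 in old untreated and 88.8 to 243 in young untreated muscle, with 1.57 for age and -0.405 for 3TC. None of these markers passed an adjusted p in limma, nor did those of B cells and neutrophils. B cell markers summed to 57.4 to 246 in old 3TC, 77.1 to 655 in old untreated and 40.2 to 242 in young untreated muscle, with medians of 1.41 for age and -0.197 for 3TC. Neutrophil markers summed to 118 to 753 in old 3TC, 163 to 562 in old untreated and 82.4 to 193 in young untreated muscle, with 1.47 for age and -0.438 for 3TC. Ms4a1 and Pax5, which define B cells, were at 0 in some library of every arm, as was Ncr1, which marks NK cells. Of 7 B cell markers, 4 were above 0 in every library of old 3TC, 5 in old untreated and 3 in young untreated muscle. For 9 T and NK cell markers these counts were 6, 5 and 4. Endothelial, fibroblast and adipocyte markers, all of them above 0 in every library, had median log2 differences of 0.138 for age and -0.196 for 3TC (endothelial), 0.457 and -0.348 (fibroblast), and 1.41 and -0.292 (adipocyte). The medians of the liver list were -3.46 for age and 0.297 for 3TC, those of the brain list 0.282 and -1.43, and those of the muscle list -0.109 and 0.127. In edgeR and DESeq2 the 3TC medians were 4.8 and 5.33 for liver and -2.15 and -2.14 for brain. The liver sum was 407721 in old 3TC M2 and 4234 in old 3TC F4. Some medians turned round: the endothelial one for age was -0.027 with median-of-ratios scaling, those of T and NK cells and of B cells for 3TC were 0.169 and 0.202 with quantile normalisation, and that of neutrophils for 3TC was 0.295 in edgeR.

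**Figure D4:**
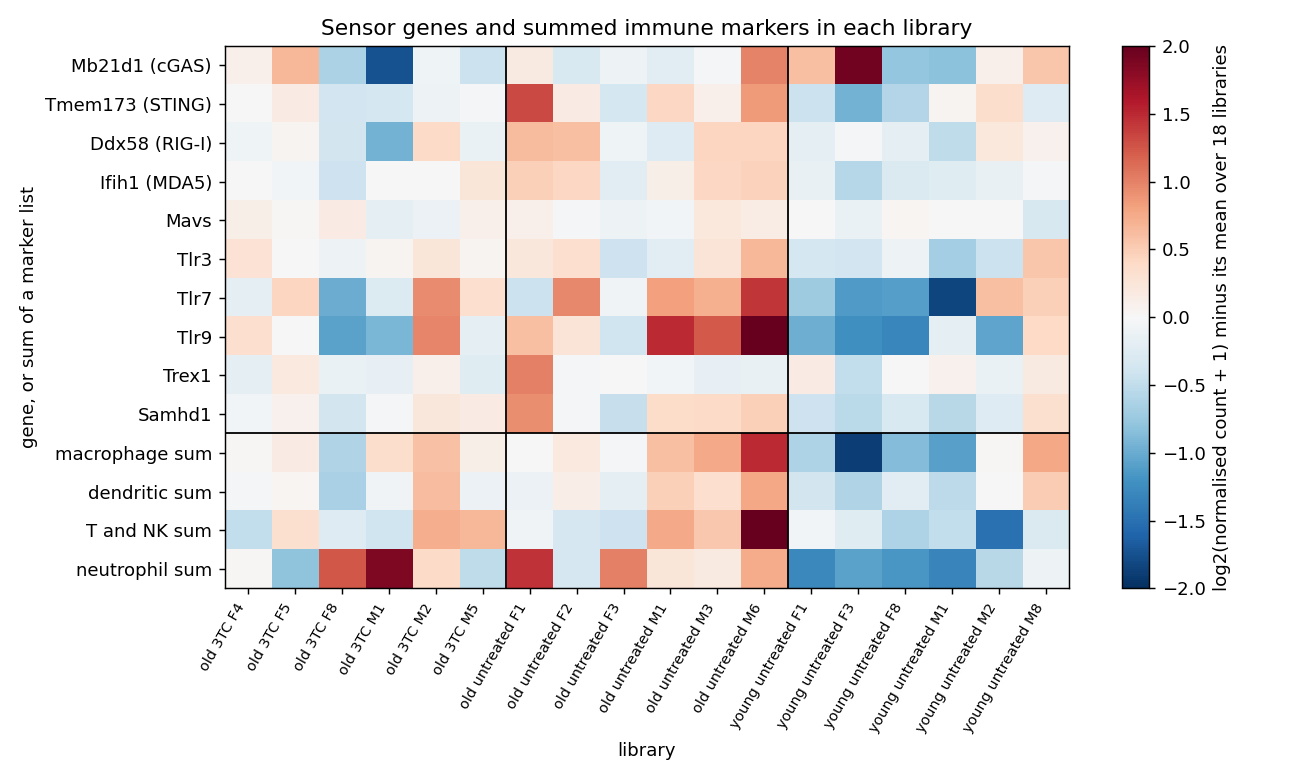
Each of the 10 genes (above the line) and the summed markers of 4 immune cell groups (below it) in the 18 libraries, as log2(normalised count + 1) minus the mean over all libraries, with old 3TC left, old untreated in the middle and young untreated right. Old untreated M6 is high for Tlr7, Tlr9 and the macrophage sum together, while old untreated F1 is high for Tmem173, Trex1 and Samhd1 but near the mean for the macrophage sum.

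After arm and sex were taken out, the 10 genes followed different partners over the 18 libraries. The closest pairs among them were Tmem173 with Trex1 (Pearson r of residuals 0.684), Ifih1 with Samhd1 (0.68), Tlr3 with Samhd1 (0.658) and Ddx58 with Tlr7 (0.636), whereas Mavs reached at most 0.369, with Tmem173. Over the whole table, Samhd1 was most like Apobec3 (0.929), a cytidine deaminase that restricts retroviruses, and Irf9 (0.908), part of the factor that carries the interferon signal to DNA. Trex1 was most like Keap1 (0.927), E430025E21Rik (0.924) and Gclm (0.922). Tlr7 was most like Asah1 (0.866), Tlr3 like Cd53 (0.871), a leukocyte membrane protein, Ddx58 like Cflar (0.881), Ifih1 like Fam206a (0.877) and Tapbp (0.872), Tmem173 like Ppp1r13b (0.882), Mavs like Oplah (0.862), Mb21d1 like Runx2 (0.87) and Tlr9 like Ncapd2 (0.855). These values describe 18 libraries that share their scaling and depth, and the partners named over the whole table are among the 3 highest of 16060 genes for each sensor gene. Single libraries can carry such values. Old untreated F1 was the highest of the 18 for Tmem173, Ddx58, Ifih1, Trex1 and Samhd1, and young untreated F3 for Mb21d1. Correlations without these libraries were not tested.

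Between the sensors and interferon stand TBK1, IRF3 and IRF7. Tbk1 had 697, 803 and 821 counts as lowest, median and highest in old 3TC, 775, 926 and 997 in old untreated and 697, 788 and 978 in young untreated muscle, with log2 differences of -0.23 (SE 0.09) for 3TC and 0.15 (SE 0.09) for age; under median-of-ratios scaling they were -0.09 and -0.01. Irf3 had 1163, 1294 and 1417 in old 3TC, 1305, 1396 and 2001 in old untreated and 1107, 1259 and 1571 in young untreated muscle. Irf7, itself an interferon-induced gene, had 240.2, 378 and 542 in old 3TC, 237, 558 and 878 in old untreated and 139.7, 219 and 306 in young untreated muscle. Its age difference was 1.26 (SE 0.30, adjusted p 0.0564 in limma) and its 3TC difference -0.49 (SE 0.30, adjusted p 0.528), which was -0.31 without old untreated F1. Ifnb1, which encodes interferon beta, was at 0 in all 18 libraries. Of 12 genes in the list of kinases and interferon regulatory factors, 0 passed an adjusted p in limma in either comparison. At an unadjusted p under 0.05 in limma, 7 were higher for age and 3 lower for 3TC. Of all genes tested, 20.8% were higher for age and 10.2% differed for 3TC in either direction. The median log2 differences of the list were 0.28 and -0.195, against 0.164 and -0.153 for all genes tested. The count for age was 4 without old untreated F1 or young untreated F3, and 1 under median-of-ratios scaling. The count for 3TC was 0 under median-of-ratios scaling, in edgeR, in DESeq2 and without old 3TC M1, and 1 without old untreated F2; such counts under other settings, here and below, take either direction.

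The partners of each sensing route were counted in the same way, and 0 genes of any of the 7 lists passed an adjusted p in limma in either comparison. The share of all genes at an unadjusted p under 0.05 was 20.8% higher for age and 10.2% in either direction for 3TC. The 19 DNA sensing partners had medians of 0.203 for age and -0.211 for 3TC, or 0.038 and -0.0716 under median-of-ratios scaling. Of them, 7 were higher for age and 1 lower for 3TC at an unadjusted p under 0.05. That 1 was 0 under median-of-ratios scaling and without old 3TC F8 or M1, old untreated F2 or M3 or young untreated F1, F8 or M2, 2 without old 3TC M2, and 3 without old 3TC F5 or old untreated F3. Ifi204, a DNA-binding protein of the interferon-inducible p200 family, led both, with means of 649.5 ± 183 in old 3TC, 857 ± 232 in old untreated and 532 ± 264 in young untreated muscle (SD, n = 6 each) and log2 differences of -0.41 (SE 0.19) for 3TC and 0.78 (SE 0.19) for age; the 3TC value was -0.27 under median-of-ratios scaling. Of 16 RNA sensing partners, 9 were higher for age and 3 lower for 3TC, with medians of 0.508 and -0.242; the 3TC count was 1 under median-of-ratios scaling and without old 3TC F8, M1 or M5 or old untreated F1 or M3, 5 without old 3TC F5 and 6 without old 3TC M2. Oas1a, an oligoadenylate synthetase, averaged 58.2 ± 14.7 in old 3TC, 112.5 ± 54.8 in old untreated and 50.03 ± 13.98 in young untreated muscle (SD, n = 6 each).

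Of 18 endosomal receptor partners, 13 were higher for age and 5 lower for 3TC at an unadjusted p under 0.05, with medians of 0.492 and -0.354. The 3TC count was 1 under median-of-ratios scaling and quantile normalisation, 2 without old 3TC F8 and 3 without old 3TC M1 or old untreated M6. Irak1, a kinase downstream of the receptors, averaged 3256 ± 128 in old 3TC, 3790 ± 364 in old untreated and 2998 ± 238 in young untreated muscle (SD, n = 6 each), with log2 differences of -0.21 (SE 0.07, adjusted p 0.481 in limma) and 0.34 (SE 0.07, adjusted p 0.052); under median-of-ratios scaling they were -0.08 and 0.17 (adjusted p 0.196 in limma for age). Unc93b1, the chaperone that carries TLR3, TLR7 and TLR9 to endosomes, had an age difference of 0.90 (SE 0.21, adjusted p 0.054), and Cnpy3, a chaperone of Toll-like receptors, 0.51 (SE 0.13), or 0.32 with quantile normalisation. The 15 genes that clear nucleic acids had medians of 0.193 for age and -0.133 for 3TC, near the 0.164 and -0.153 of all genes tested. Under median-of-ratios scaling the medians of the list were 0.0277 and 0.00257. Of the 15, 7 were higher for age and 1 lower for 3TC at an unadjusted p under 0.05. The age count was 4 under median-of-ratios scaling, and the 3TC count was 0 without old untreated F2, 2 without old untreated M3 or young untreated M8 and 3 without old 3TC M2. Adar, which edits double-stranded RNA, was that one, at 394.6 ± 38.1 in old 3TC, 571.5 ± 141 in old untreated and 351 ± 109 in young untreated muscle, and Pld4, a lysosomal nuclease of immune cells, had an age difference of 1.24 (SE 0.27).

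Downstream, 9 of 14 interferon and receptor pathway genes were testable; 6 were higher for age and 0 lower for 3TC at an unadjusted p under 0.05, with medians of 0.528 and -0.282. Of 25 interferon-stimulated genes tested, 20 were higher for age and 2 lower for 3TC, with medians of 0.748 and -0.427. For age 25 of 25 lay above 0, also with median-of-ratios scaling, quantile normalisation, edgeR and DESeq2, and 24 of 25 lay below 0 for 3TC (21 with quantile normalisation). Of all genes tested in limma, 20.8% were higher for age and 10.2% differed for 3TC in either direction at an unadjusted p under 0.05. The shares by direction alone were 79.1% above 0 for age and 80.0% below 0 for 3TC. Oasl2 averaged 516 ± 254 in old untreated and 220.4 ± 113 in young untreated muscle (SD, n = 6 each), an age difference of 1.27 (SE 0.31, adjusted p 0.0625 in limma). The 2 lower for 3TC were Ifi35, at 613.5 ± 82.5 in old 3TC and 779 ± 69.9 in old untreated muscle, and Ifi44, at 56.5 ± 10.98 in old 3TC and 117 ± 78.2 in old untreated muscle. Without old untreated F1 the age counts were 13 of 25 and 3 of 9, without young untreated F3 they were also 13 and 3, and without young untreated M1 the smaller list had 3. Under median-of-ratios scaling, which sets the median of all genes for age near 0, they were 11 of 25 and 3 of 9. In that fit 2083 of 16060 genes reached an unadjusted p under 0.05 in limma for age, in either direction. The 3TC count of 2 interferon-stimulated genes was 1 under that scaling, 4 without old 3TC M2 or old untreated M1 and 9 without old untreated F3, and the 3TC count of 0 in the smaller list was 1 without old 3TC F8 or M5 or old untreated M1, 2 without old 3TC M2 and 3 without old untreated F3.

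**Figure D5:**
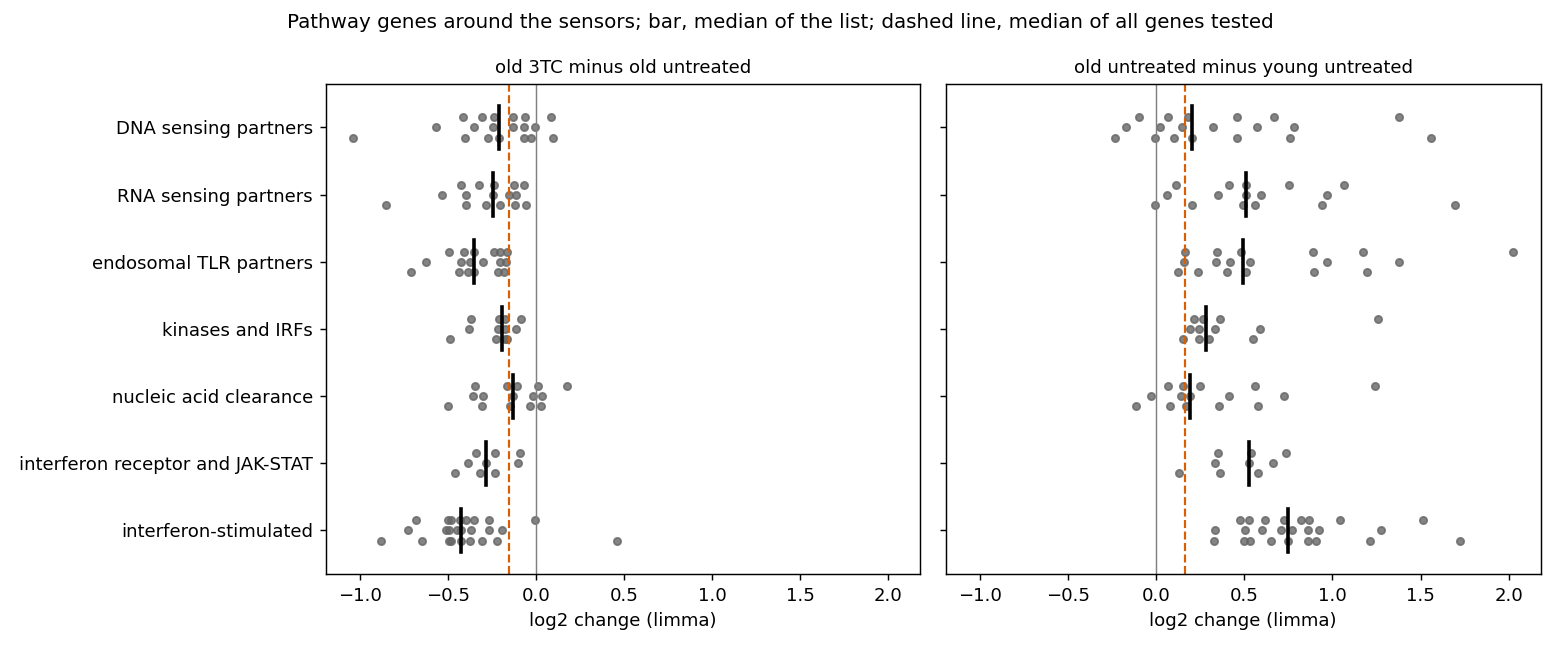
Log2 difference in limma of the tested genes of 7 pathway lists, for old 3TC minus old untreated (left) and old untreated minus young untreated (right); each point is a gene, the bar is the median of the list and the dashed line the median of all genes tested. Interferon-stimulated genes have the medians farthest from 0, at -0.427 on the left and 0.748 on the right, where all genes tested lie at -0.153 and 0.164.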

How the data were processed

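The deposited table holds read counts that the authors scaled to a common total per library, a normalised signal; the submitters' processing notes name STAR and mm10, and the counter, annotation and use of strand are not given in the sources used here. Deposited values were whole multiples of a single step per library (100% within a tolerance of 0.001), which gave back 64.2 to 85.4 M reads. Of 25604 entries, 24431 were genes; 1146 transposable element and 27 date-like entries were left out of the tests. Genes were fitted with limma 3.58.1 in R 4.3.3 (eBayes with trend) on log2(normalised count + 1) where the mean was at least 10, by arm and sex (14 residual degrees of freedom), with Benjamini-Hochberg adjustment over 16060 genes and a threshold of 0.05. Log2 differences are on that scale and understate those of low genes. Sex differences came from 6 means of arm by sex. Reads recovered in this way were fitted with edgeR 4.0.16 and with DESeq2 1.42.0 as alternatives, and the fits were tested on simulated data. Exon lengths and coordinates came from GENCODE vM21 (GRCm38), promoters from RefSeq. The genes and lists were chosen with earlier results of these data known; named partners were the lists' smallest p values. The p-values measure the spread between these libraries. RefSeq promoters were found for 8 of the 10 genes.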

Additional observations from a re-analysis of the deposited data

Results flagged for a closer look

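In each arm of 6 libraries the highest or lowest value was compared with its nearest neighbour, and a gap of more than 0.625 of the arm's whole range was taken as standing apart. This was done for 63 sets of 6 values, and 11 stood apart. By chance about 1 in 20 would, if values were independent and normally distributed. The counts and sums were not on a log scale and the sets share libraries, so that rate is only a rough guide. Among the sensor genes, Trex1 at 2251 in old untreated F1 had a gap of 0.907 of the range, Mb21d1 at 90.59 in old untreated M6 0.726 and at 174.7 in young untreated F3 0.708, Samhd1 at 2109 in young untreated M8 0.722, and Tlr3 at 264.8 in the same young male 0.636. Among the summed markers, T and NK cells stood apart in old untreated M6 at 1095 (0.739), B cells in old untreated M1 at 655.5 (0.642) and in young untreated F1 at 241.9 (0.641), and adipocytes in old untreated F2 at 255800 (0.641). The liver sum was 407700 in old 3TC M2 (0.722), and the muscle sum, a low value, was 6858000 in young untreated M2 (0.692).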

How the results depend on the processing

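The 10 genes gave 0 adjusted calls for 3TC, for old 3TC against young and for the sex differences in every alternative run, and for age 0 except with array weights (3) and DESeq2 (1); leaving out single libraries gave 0 to 3. The count of all genes called for age, 59, was 24 with median-of-ratios scaling, 631 with array weights, 14 with no sex term, 5 with liver and brain scores as covariates, 4 in edgeR, 221 in DESeq2, 2 without young untreated F1 and F3 and 9 without old untreated F1 and young untreated F3, a choice made after seeing the data; leaving out single libraries gave 2 to 608. Of those calls 57 were higher and 2 lower, against 16 and 8 with median-of-ratios scaling and 29 and 16 with quantile normalisation. For old 3TC against young, 2 genes became 6 with quantile normalisation, 8 with array weights, 4 with only the arms compared, 5 with the liver and brain scores, 120 in DESeq2 and 4 without old untreated F1 and young untreated F3, and 2 to 16 on leaving out single libraries. For the sex differences, 0 became 71 (3TC) and 152 (age) in DESeq2 and 2 (age) with the liver and brain scores.

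At an unadjusted p under 0.05, the 4 sensor genes for 3TC were 1 with median-of-ratios scaling, edgeR, DESeq2 and without old untreated F1 and young untreated F3, 0 with quantile normalisation and with the liver and brain scores, 2 with array weights, and 1 to 5 on leaving out single libraries. Over all 16060 genes the count for 3TC was 1633 in the main fit, 876 with median-of-ratios scaling, 703 with quantile normalisation, 1185 in edgeR and 1411 in DESeq2. The 0 sensor genes for old 3TC against young were 2 with quantile normalisation and array weights, 1 with only the arms compared and with the liver and brain scores, and 0 to 2 on leaving out single libraries. Over all genes 1496 reached it for old 3TC against young in the main fit and 1677 with quantile normalisation.

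Directions turned as follows, and apart from the scalings the cause was not tested. With median-of-ratios scaling, quantile normalisation, edgeR and DESeq2, in that order, Mavs for 3TC was 0.112, 0.0933, 0.112 and 0.115, Tlr3 for 3TC 0.0824, 0.134, 0.0504 and 0.0522, Mavs for age -0.0512, -0.0392, -0.0481 and -0.0551, Trex1 for age -0.0371, -0.0511, -0.00483 and -0.0105, and Tbk1 for age -0.0144, -0.0284, -0.00994 and -0.0173. Array weights gave -0.0594 for Trex1 with age and 0.0252 for Ddx58 in old 3TC against young; the liver and brain scores gave 0.0275 for Ddx58 and 0.0727 for Trex1 in old 3TC against young, and 0.167 for Tlr3 with 3TC. Mb21d1 for age was 0.309 without young untreated F1 and F3 and 0.134 without old untreated F1 and young untreated F3, where Trex1 was 0.0102 for 3TC and -0.145 for age. On leaving out single libraries Mavs for 3TC ran from -0.0629 to 0.0124, Trex1 for 3TC from -0.214 to 0.0172, Tlr3 for 3TC from -0.164 to 0.0437, Trex1 for age from -0.0537 to 0.187, Mb21d1 for age from -0.444 to 0.137, and in old 3TC against young Ddx58 from -0.21 to 0.0752 and Trex1 from -0.147 to 0.0226.

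Mice of the same sex and number in different arms deviated together only weakly (correlations from -0.0617 to 0.19 over 7 pairs). So few pairs cannot settle whether the numbers pair the mice, and the number of young untreated F1 among them is in doubt. The main fit did not use the numbers. A replicate block gave 328 genes for age, 0 for old 3TC against young and -0.125 for Tmem173 in old 3TC against young, and no adjusted call among the 10 genes; the young untreated female titled 1 is numbered 2 in its library name, which leaves its place in the block in doubt. For 3TC at an unadjusted p under 0.05, in either direction, the block gave 13 of 25 interferon-stimulated genes and 10 of 18 endosomal receptor partners. The share of all genes in that fit is not given here, so these counts do not show a change particular to the lists. The block took the number alone, so females and males with the same number were joined. Old 3TC F4 and old untreated M6 shared their number with no other library. Tlr9 was not tested where the mean had to reach 50. Counts of 12 to 30 reads in the lowest libraries limit what can be seen of Mb21d1 and Tlr9.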
